A study of Mus musculus with 6 samples.

Results

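The genes described here are 45 components of the machinery of mitosis: cyclins and kinases that drive entry into division, proteins of the spindle checkpoint and of anaphase, kinetochore proteins, kinesins and cytokinesis proteins, and condensin. They were taken by name, as probe sets annotated to exactly 1 of the 45 symbols on Affymetrix expression arrays. The list was chosen with earlier results of these data known. Of the 45 genes, 42 had such a probe set, and all 42 were bright enough to be tested, among 9248 genes tested of 12393 with a probe set of their own. Ccnb1, Espl1 and Cdca8 were not analysed here.

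The arrays measured RNA from 6 mammary tumours grown from 4T1 cells, a mouse mammary carcinoma line, with 1 array per tumour. In 3 of them, labelled Bptf KD, the 4T1 cells had received short hairpin RNAs against Bptf through an MMLV retrovirus, and 3 tumours labelled Control grew from control 4T1 cells. Either kind of cell (10000 per mouse) was injected into the fourth mammary gland's fat pad, and tumours were taken after 21 days. The hosts were NSG mice, also written Ifrg2r -/- in the labels, a strain without mature lymphocytes. Bptf belongs to NURF, which slides nucleosomes with ATP, and the series as a whole is about the recognition of NURF-depleted tumours by CD8 T cells. The sources used here do not say what the control cells carried, whether Bptf KD cells were 1 clone or a pool, or how old the mice were.

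Cells enter mitosis when cyclin A and cyclin B activate Cdk1, and Polo and Aurora kinases then drive spindle assembly. Kinetochores built on centromeric chromatin attach chromosomes to the spindle, and the spindle checkpoint holds the anaphase-promoting complex back until every chromosome is attached. Most of these genes are transcribed late in the cell cycle, so that in a tissue their RNA is used as a measure of how many cells are dividing. In a whole tumour, fewer dividing cells and less of these RNAs per dividing cell cannot be told apart.

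Late cell cycle genes are known to be controlled through 2 promoter elements. The CHR (cell cycle genes homology region) is bound by the DREAM complex in resting cells and by complexes of MuvB with B-Myb and Foxm1 in dividing cells, and the CCAAT box is bound by the factor NF-Y. RefSeq promoter windows (GRCm38.p6), each of 300 bases with 250 before and 50 after an annotated gene start, were found for 34 of the 42 genes, with 37 windows. The letters TTTGAA (the CHR) and CCAAT were searched on both strands, and each motif was counted whether or not it overlapped another. The windows of Bub3, of Ect2 and of Prc1 overlap, so the same letters were counted again there. The CHR was present in 30 of the 37 windows (81.1%), against 11.6% of the 9630 windows of all genes tested and 17.9% of all 32851 windows. CCAAT was present in 81.1% of the windows of mitotic genes, against 37% of those of all genes tested. A variant of the CHR, TTCGAA, was in 3 windows, so that 31 held either form, and 28 (75.7%) held either form together with CCAAT, against 5.34% of windows of all genes tested. A match of letters is a description of the sequence and not a measured binding site.

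To show the arrangement, 1 window is given for each class of genes: that of the gene with the smallest p in its class among those with a single window that holds both motifs. They lie at chr6:124829926-124830225 (plus strand) for Cdca3, chr4:118437294-118437593 (minus strand) for Cdc20, chr5:30666636-30666935 (plus strand) for Cenpa, chr9:61946750-61947049 (minus strand) for Kif23 and chr7:135716330-135716629 (minus strand) for Mki67. Each is printed 5′ to 3′ on the strand of the gene, and capitals mark the CHR and CCAAT letters in either orientation (TTCAAA and ATTGG are their reverse complements).
Cdca3: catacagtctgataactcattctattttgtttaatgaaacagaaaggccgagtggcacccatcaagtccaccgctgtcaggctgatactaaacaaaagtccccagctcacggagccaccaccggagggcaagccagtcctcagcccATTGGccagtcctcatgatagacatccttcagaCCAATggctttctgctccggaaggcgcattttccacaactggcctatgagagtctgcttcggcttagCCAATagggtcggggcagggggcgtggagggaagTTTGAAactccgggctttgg
Cdc20: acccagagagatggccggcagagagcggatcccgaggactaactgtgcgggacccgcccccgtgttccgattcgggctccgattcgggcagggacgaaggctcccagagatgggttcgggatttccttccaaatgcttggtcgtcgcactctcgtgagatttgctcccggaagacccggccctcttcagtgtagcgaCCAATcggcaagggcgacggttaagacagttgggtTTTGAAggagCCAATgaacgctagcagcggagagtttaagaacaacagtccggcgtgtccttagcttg
Cenpa: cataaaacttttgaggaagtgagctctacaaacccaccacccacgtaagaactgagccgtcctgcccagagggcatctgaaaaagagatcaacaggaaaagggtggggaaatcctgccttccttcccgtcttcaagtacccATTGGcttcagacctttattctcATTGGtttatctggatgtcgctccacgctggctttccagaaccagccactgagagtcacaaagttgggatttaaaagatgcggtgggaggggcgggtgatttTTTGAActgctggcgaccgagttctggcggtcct
Kif23: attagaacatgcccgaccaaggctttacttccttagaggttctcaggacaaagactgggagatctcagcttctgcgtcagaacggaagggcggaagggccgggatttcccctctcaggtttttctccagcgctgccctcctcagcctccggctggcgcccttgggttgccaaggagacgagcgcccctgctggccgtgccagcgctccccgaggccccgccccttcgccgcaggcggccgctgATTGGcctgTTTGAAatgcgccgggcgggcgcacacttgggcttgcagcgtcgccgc
Mki67: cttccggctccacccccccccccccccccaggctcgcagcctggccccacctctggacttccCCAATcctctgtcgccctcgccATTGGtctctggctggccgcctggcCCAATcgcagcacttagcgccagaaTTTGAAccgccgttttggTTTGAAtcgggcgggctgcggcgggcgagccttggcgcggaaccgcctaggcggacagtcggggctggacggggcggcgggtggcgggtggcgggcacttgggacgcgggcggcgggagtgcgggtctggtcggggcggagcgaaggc
Positions are counted from 0 at the first transcribed base. The CHR begins at 30 in Cdca3, -18 in Cdc20, 16 in Cenpa and 2 in Kif23, and each of these has at least 1 CCAAT box upstream of it. In the Mki67 window 2 copies of the CHR begin at -116 and -98, downstream of 3 CCAAT boxes.

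Over all 37 windows the CHR was most frequent at the start. It occurred 45.9 times per 100 windows in the first 50 transcribed bases and 27 times in the 50 bases before them, against 1.43 and 1.69 in all genes tested. CCAAT was most frequent farther upstream, at 56.8 per 100 windows between 100 and 51 bases before the start, against 16.3 in all genes tested. The CHR lay on the strand of the gene in 26 of 39 matches, where letters shared by overlapping windows count in each window. The windows of Birc5, Cenpe, Mad2l1, Nek2, Nusap1 and Pttg1 held neither form of the CHR, and those of Anln, Birc5, Kif2c, Mad2l1, Ndc80, Nusap1 and Pttg1 held no CCAAT. No match says only that these letters are not in the window.

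**Figure D1:**
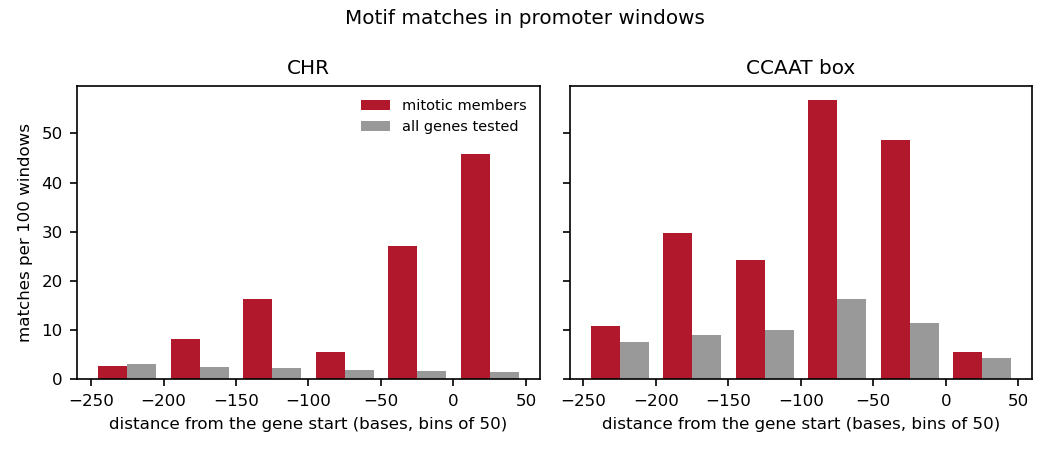
Matches of the CHR (left) and of CCAAT (right) per 100 promoter windows (vertical axis) against distance from the gene start in bins of 50 bases (horizontal axis), for windows of the mitotic genes (red) and of all genes tested (grey). CHR matches of the mitotic genes peak in the first 50 transcribed bases, at 45.9 per 100 windows, and CCAAT matches between 100 and 51 bases upstream, at 56.8.

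Bptf was read first, since it is the target of the hairpins. On its brightest probe set it was at 9.60, 9.56 and 9.99 in Bptf KD tumours 1, 2 and 3, against 10.69, 9.77 and 10.59 in controls 1, 2 and 3 (log2 levels, an exact two-sided permutation p of 0.2, where 0.1 is the smallest possible). On the other 3 probe sets the differences were -0.57, -0.17 and -0.80, with exact permutation p-values of 0.5, 0.6 and 0.4, and control 2 lay below every Bptf KD tumour, so it is named below as the tumour labelled Control 2. It counts among the controls in every direction given, unless stated. That tumour also stood apart across genes. Its profile correlated at 0.934 and 0.939 with the other controls over all genes tested, while those correlated with each other at 0.986, and the mean log2 level of its skeletal muscle markers was 11.5, against 6.12 to 9.17 in Bptf KD tumours and 8.81 and 6.28 in the other controls. Its keratinocyte markers averaged 9.67, against 7.19 to 7.30 in Bptf KD tumours and 7.02 and 7.2 in the other controls. The 3-prime minus 5-prime signal of Actb, a measure of RNA integrity, was 0.76 to 1.05 in Bptf KD tumours, and 0.76, 1.23 and 0.77 in controls 1, 2 and 3.

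Mitotic genes had lower mean levels in Bptf KD tumours than in controls without exception, but no single gene passed the test across all genes. All 42 differences (log2, Bptf KD minus Control) were negative, from -0.99 for Cenpe to -0.08 for Racgap1. Their median was -0.47, a level 0.722 times that of the controls, while the median of all 9248 genes tested was 0.06 and 39.8% of those were negative. By limma, 0 of the 42 passed an adjusted p of 0.05, against 0.66% of all genes called lower, and the smallest adjusted p was 0.144. At an unadjusted p under 0.05, 21 of the 42 were lower and 0 higher, against 5.82% of all genes lower. In 18 of the 42 every Bptf KD tumour lay below every control, against 8.17% of all genes. Mitotic genes are transcribed together, so the 42 are not independent of each other, and counts over them describe the list in these 6 tumours. Because the list was chosen with earlier results of these data known, its counts beside the shares of all genes are not an independent test.

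The tumours did not differ evenly. The mean log2 level over the 42 genes was 10.1, 9.69 and 9.87 in Bptf KD tumours 1, 2 and 3, against 10.3, 10.1 and 10.7 in controls 1, 2 and 3. Control 3 was the highest of the 6 tumours in 36 of the 42 genes and lay above every Bptf KD tumour in 41. Bptf KD 2 was the lowest of the 6 in 23 genes and Bptf KD 3 in 12. Controls 1 and 2 lay above every Bptf KD tumour in 32 and 25 genes, so the groups overlap most through the tumour labelled Control 2.

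**Figure D2:**
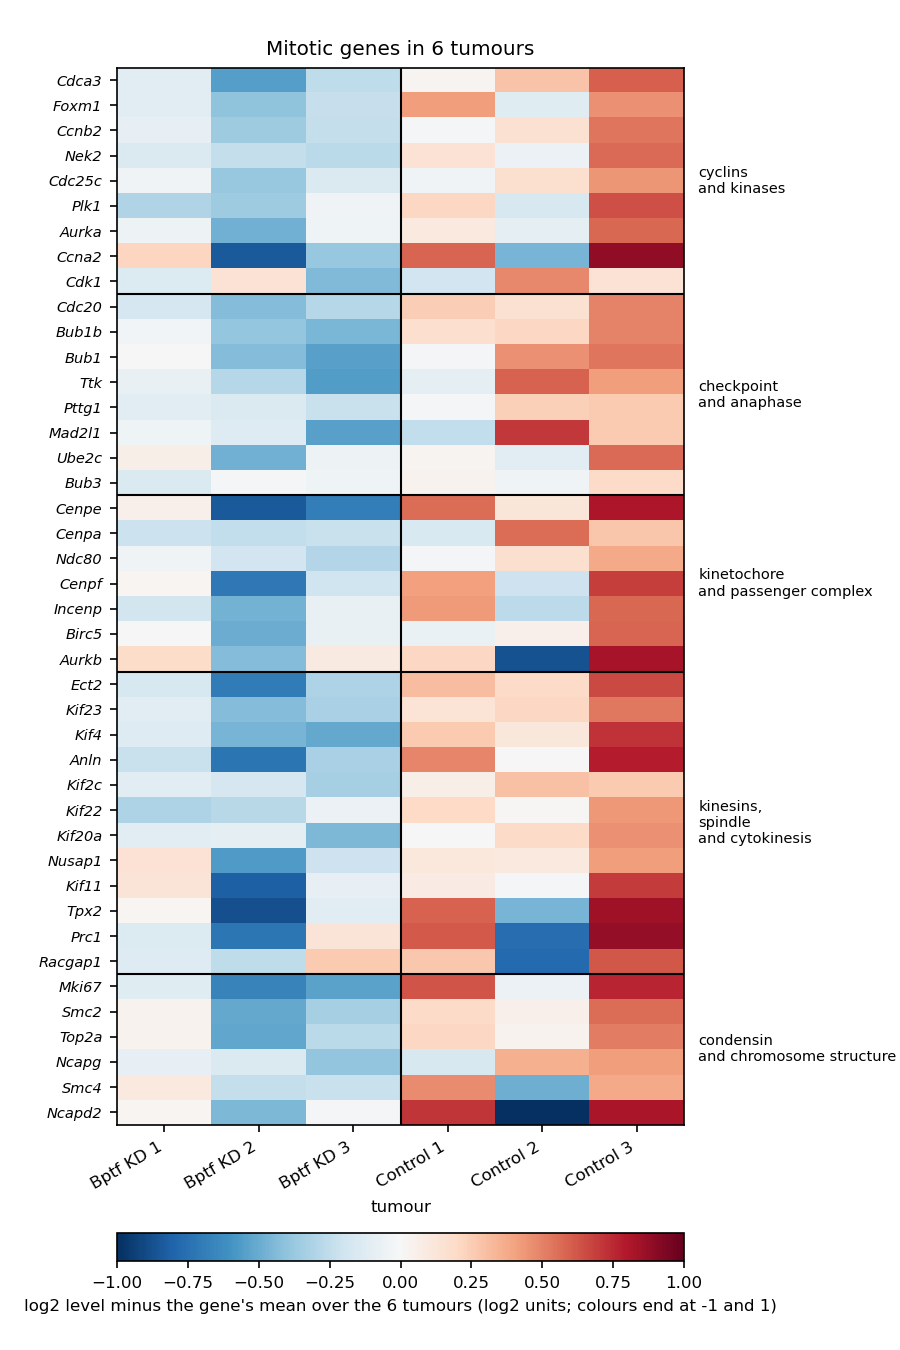
Log2 level of each of the 42 mitotic genes (rows, by class and by p within a class) in each tumour (columns, Bptf KD left of Control), as the difference from the mean of that gene over the 6 tumours (colour, log2 units). Control 3 is highest in 36 genes and Bptf KD 2 lowest in 23, and the tumour labelled Control 2 is low in genes such as Aurkb, Prc1, Racgap1 and Ncapd2 and high in Mad2l1, Ttk and Cenpa.

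Cyclins, kinases and their regulators were represented by 9 of 10 genes. All 9 differences were negative (median -0.45), 4 at an unadjusted p under 0.05, and 3 had groups that did not overlap. Over all genes, 5.82% were lower at that p and 8.17% had every Bptf KD tumour below every control. Cdca3, an activator of mitotic entry, was at 10.13, 9.69 and 9.99 in Bptf KD tumours, against 10.27, 10.53 and 10.84 in controls (difference -0.61, SE 0.19, limma adjusted p = 0.243). Its groups did not overlap, and the gap between the highest Bptf KD tumour and the lowest control was small. Foxm1, the transcription factor that switches on many late cell cycle genes, was at 7.42, 7.13 and 7.30 in Bptf KD tumours, against 7.95, 7.41 and 7.99 in controls (difference -0.50, SE 0.19). Here Bptf KD 1 and the tumour labelled Control 2 lay at nearly the same level, and the other controls above all of the Bptf KD tumours. Ccnb2, a B-type cyclin that activates Cdk1, was at 10.75, 10.48 and 10.60 in Bptf KD tumours, against 10.82, 10.99 and 11.37 in controls (difference -0.45), with no overlap.

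Cdk1, the central kinase of mitosis, was among the least different genes. Its level was 12.37, 12.65 and 12.06 in Bptf KD tumours, against 12.31, 12.98 and 12.65 in controls (difference -0.29, SE 0.22), and the groups overlapped widely. Plk1, the Polo kinase of spindle assembly, was at 8.96, 8.91 and 9.23 in Bptf KD tumours, against 9.47, 9.10 and 9.91 in controls (difference -0.46). Aurka, the Aurora kinase of centrosomes, was at 8.48, 8.05 and 8.49 in Bptf KD tumours, against 8.63, 8.44 and 9.11 in controls (difference -0.39). For both kinases the tumour labelled Control 2 lay within the range of the Bptf KD tumours. Nek2, a kinase that separates centrosomes, differed by -0.43, the phosphatase Cdc25c, which activates Cdk1, by -0.38, and Ccna2, cyclin A, by -0.67 with an SE of 0.40.

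Genes of the spindle checkpoint and of anaphase were represented by 8 of 9. All 8 differences were negative (median -0.53), 5 at an unadjusted p under 0.05, and 3 had groups without overlap. Beside these counts, the shares of all genes were 5.82% lower at that p and 8.17% lower without overlap. Cdc20, the activator of the anaphase-promoting complex on which the checkpoint acts, was at 11.40, 11.13 and 11.28 in Bptf KD tumours, against 11.81, 11.72 and 12.06 in controls. The means were 11.3 ± 0.14 and 11.9 ± 0.18 (SD, n = 3 each), the difference was -0.59 (SE 0.14), and the limma adjusted p of 0.144 was the smallest of the 42. All of the Bptf KD tumours lay well below all of the controls, and its 3 probe sets gave differences from -0.59 to -0.57. Bub1b (BubR1), a checkpoint protein that binds Cdc20, was at 9.13, 8.77 and 8.70 in Bptf KD tumours, against 9.32, 9.36 and 9.65 in controls (difference -0.58), again without overlap.

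Bub1, a checkpoint kinase of kinetochores, was at 10.50, 10.06 and 9.95 in Bptf KD tumours, against 10.47, 10.95 and 11.03 in controls (difference -0.65, SE 0.21). Only the levels of Bptf KD 1 and control 1 crossed. The checkpoint kinase Ttk (Mps1) differed by -0.61, and Pttg1 (securin), the inhibitor of separase, by -0.32. Mad2l1 (Mad2), the inhibitor of Cdc20, differed by -0.48 and Ube2c, an E2 enzyme of the anaphase-promoting complex, by -0.32, and neither had an unadjusted p under 0.05. Bub3 differed by -0.13 on its brightest probe set and by 0.087 on the other probe set above the dim level, so its direction depended on the probe set.

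Kinetochore genes and genes of the chromosomal passenger complex were represented by 7 of 8. All 7 were negative (median -0.45), 2 at an unadjusted p under 0.05, and 3 did not overlap. The shares of all genes were 5.82% lower at that p and 8.17% lower without overlap. Cenpe, a kinesin of the kinetochore that moves chromosomes to the spindle equator, had the largest difference of all 42. It was at 9.49, 8.6 and 8.75 in Bptf KD tumours, against 10.00, 9.56 and 10.25 in controls (difference -0.99, SE 0.28, limma adjusted p = 0.204). Bptf KD 1 and the tumour labelled Control 2 were nearly level, and the other Bptf KD tumours lay far below every control. Cenpa, the histone H3 variant that marks centromeres, was at 11.37, 11.34 and 11.36 in Bptf KD tumours, against 11.43, 12.14 and 11.86 in controls (difference -0.45). The Bptf KD tumours were almost equal, and control 1 lay just above them. Ndc80, the microtubule-binding subunit of the outer kinetochore, was at 9.15, 8.99 and 8.89 in Bptf KD tumours, against 9.17, 9.34 and 9.56 in controls (difference -0.35).

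In the chromosomal passenger complex, Incenp, the scaffold, was at 10.20, 9.91 and 10.31 in Bptf KD tumours, against 10.81, 10.12 and 10.96 in controls (difference -0.49, SE 0.24). Birc5 (survivin), the subunit that brings the complex to centromeres, was at 11.05, 10.55 and 10.97 in Bptf KD tumours, against 10.98, 11.10 and 11.63 in controls (difference -0.38). Aurkb, its kinase, was at 9.17, 8.55 and 9.07 in Bptf KD tumours, against 9.19, 8.11 and 9.81 in controls (difference -0.11, SE 0.42). The tumour labelled Control 2 was the lowest of the 6 for Aurkb, and the difference was positive without control 3 (0.28) or without Bptf KD 2 (0.083). Cenpf, a large protein of the kinetochore corona, differed by -0.60 with overlapping groups.

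Kinesins, spindle and cytokinesis genes were all measured, 12 of 12. Of these, 12 were negative (median -0.50), 7 at an unadjusted p under 0.05, and 7 had groups without overlap. Among all genes, 5.82% were lower at that p and 8.17% were lower without overlap. Ect2, the exchange factor that activates RhoA at the cleavage furrow, was at 9.86, 9.32 and 9.71 in Bptf KD tumours, against 10.33, 10.21 and 10.68 in controls (difference -0.78, SE 0.19, limma adjusted p = 0.155). Kif23, the kinesin of the centralspindlin complex, was at 9.76, 9.44 and 9.55 in Bptf KD tumours, against 10.01, 10.08 and 10.40 in controls (difference -0.58, SE 0.16). Kif4, a kinesin of chromosome arms and of the spindle midzone, was at 8.29, 7.95 and 7.90 in Bptf KD tumours, against 8.68, 8.53 and 9.14 in controls (difference -0.74, SE 0.20). For all of these the controls lay above the Bptf KD tumours.

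Anln (anillin), a scaffold of the contractile ring, was at 11.39, 10.88 and 11.29 in Bptf KD tumours, against 12.10, 11.62 and 12.40 in controls. Its difference was -0.85 (SE 0.23, limma adjusted p = 0.193), a level 0.554 times that of the controls, with no overlap. Smaller differences were those of Kif2c (-0.41), a kinesin that takes microtubules apart, of Kif22 (-0.43), which pushes chromosome arms outward, and of Kif20a (-0.43), a kinesin of cytokinesis. The motor Kif11, which slides spindle poles apart, differed by -0.51, the spindle assembly factor Tpx2 by -0.65, Nusap1 by -0.41 and the midzone protein Prc1 by -0.49, with no unadjusted p under 0.05 among these 4. Racgap1, the partner of Kif23 in centralspindlin, differed by only -0.08 (SE 0.36), and its sign turned without Bptf KD 2, control 1 or control 3.

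Condensin subunits and proteins of mitotic chromosomes were represented by all 6. All 6 were negative (median -0.46), 3 at an unadjusted p under 0.05, and 2 did not overlap. In all genes tested, 5.82% were lower at that p and 8.17% were lower without overlap. Mki67 (Ki-67), which coats mitotic chromosomes and is the usual histological marker of dividing cells, was at 11.26, 10.71 and 10.85 in Bptf KD tumours, against 12.01, 11.32 and 12.14 in controls. The means were 10.9 ± 0.29 and 11.8 ± 0.44 (SD, n = 3 each), a difference of -0.88 (SE 0.25, limma adjusted p = 0.209) or a level 0.542 times that of the controls. The highest Bptf KD tumour and the tumour labelled Control 2 were nearly level. Top2a, the topoisomerase that untangles chromosomes, was at 11.97, 11.42 and 11.67 in Bptf KD tumours, against 12.14, 11.97 and 12.45 in controls (difference -0.50, SE 0.19). Smc2, an ATPase of condensin, was at 11.32, 10.78 and 10.96 in Bptf KD tumours, against 11.48, 11.34 and 11.85 in controls (difference -0.54, SE 0.20). The highest Bptf KD tumour equalled or nearly equalled the lowest control in both.

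Other condensin subunits were more scattered. Ncapg differed by -0.41, and Smc4 by -0.24 with an SE of 0.27. Ncapd2 was at 7.30, 6.83 and 7.26 in Bptf KD tumours, against 8.0, 6.2 and 8.1 in controls (difference -0.30, SE 0.50). The tumour labelled Control 2 had the lowest Ncapd2 of the 6, by a wide margin below the other controls, and the difference was 0.03 without control 3.

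**Figure D3:**
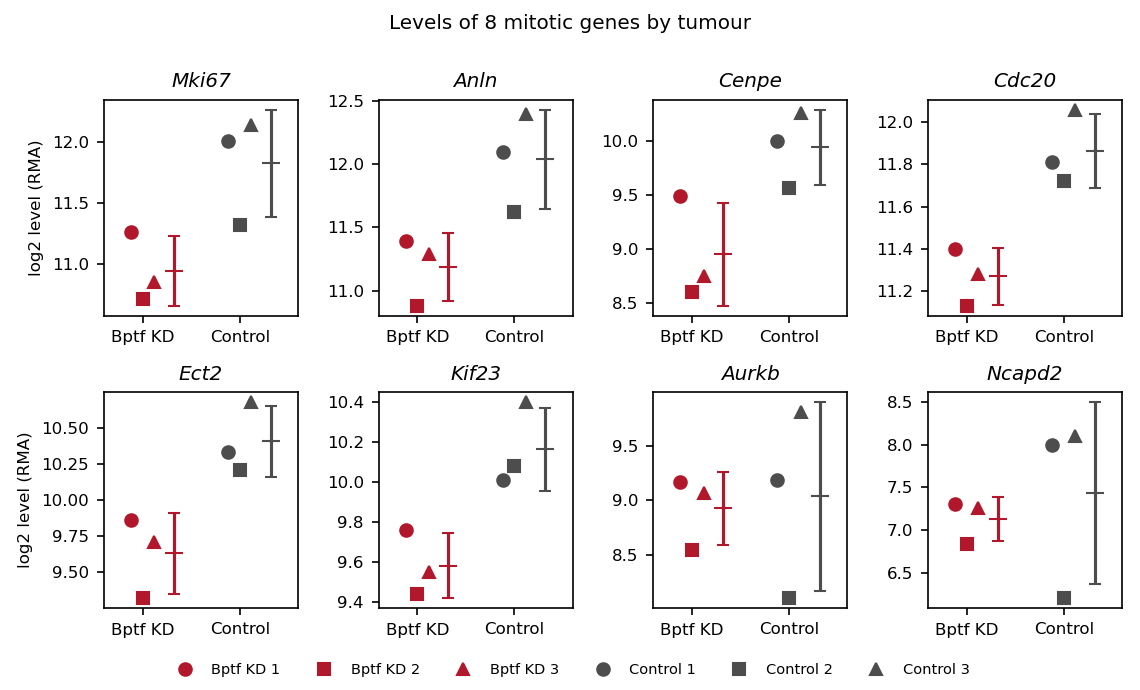
Log2 level (vertical axis, RMA) of 8 mitotic genes in Bptf KD (red) and Control (grey) tumours, 1 point per tumour with its number as the symbol, and the mean ± SD (n = 3 each) to the right of each group. In the first 6 genes every Bptf KD tumour lies below every control, while for Aurkb and Ncapd2 the tumour labelled Control 2 is the lowest of all, at 8.11 and 6.2.

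Of 77 probe sets of the 42 genes, 66 lay above the dim level (a mean log2 of 6.09, the lowest 30% of all probe sets), and 65 of these had a negative difference. The exception was the second probe set of Bub3. Of 17 genes with several probe sets above the dim level, 16 were negative on each. The spread within a gene was 0.01 for Kif23 (2 probe sets) and 0.03 for Cdc20 (3 probe sets). It was widest for Ncapg, at -0.72 and -0.41. The brightest probe sets of Cdc20, Incenp, Aurkb, Kif2c and Kif22 are of the manufacturer's x type, in which some probes can match other transcripts. For Aurkb the second probe set gave -0.33 beside -0.11, and for Racgap1 -0.32 beside -0.08.

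Without the tumour labelled Control 2 the difference was larger in size in 34 of the 42 mitotic genes and smaller in 8. The median was -0.575 against a median of 0.04 over all genes, and all 42 were negative. Then 6 of the 42 passed across all genes, against 2.52% of all genes called lower: Mki67 (difference -1.135, limma adjusted p = 0.0248), Anln (-1.06, adjusted p = 0.0321), Ncapd2 (-0.92, adjusted p = 0.0352), Foxm1 (-0.69, adjusted p = 0.0354), Incenp (-0.745, adjusted p = 0.0447) and Cdc20 (-0.665, adjusted p = 0.0473) fell. In 32 of the 42 all Bptf KD tumours lay below both remaining controls, against 18.9% of all genes. That tumour was below both other controls in 26 of the 42 genes and at least 2-fold below their mean in 6, so leaving it out favours larger differences and is not independent evidence of them. It was above both in 5. The 8 genes with a smaller difference without it were Cdk1 (-0.12), Mad2l1 (-0.25), Cenpa (-0.29), Pttg1 (-0.29), Ncapg (-0.33), Kif2c (-0.36), Ttk (-0.47) and Bub1 (-0.58). With limma's array weights, which gave that tumour a weight of 0.15 beside 0.757 to 4.00 for the others, 31 of the 42 passed, against 7.46% of all genes called lower. The estimation of these weights stopped before its convergence tolerance was reached, so that count is given only beside the others.

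**Figure D4:**
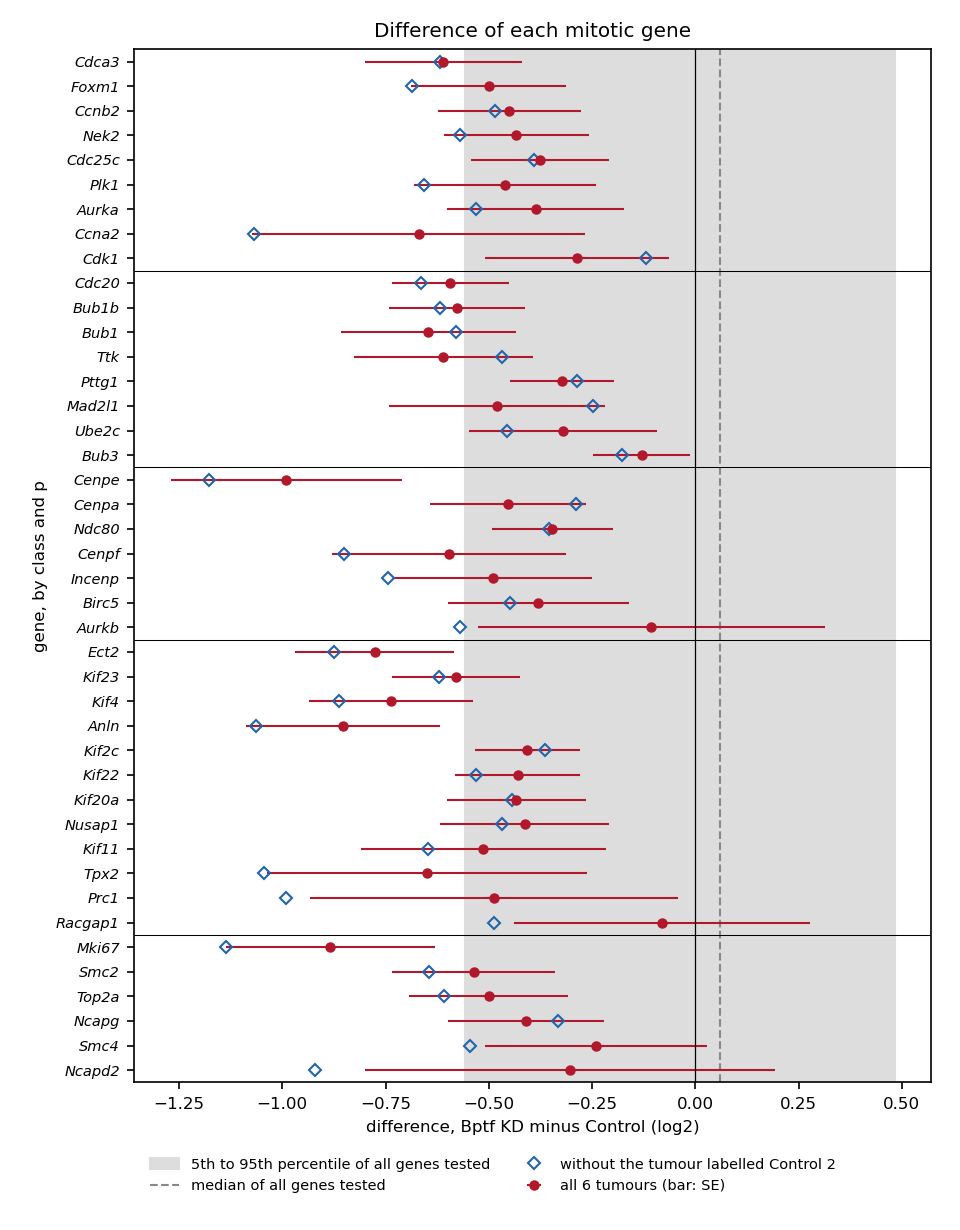
Difference between Bptf KD and Control tumours (horizontal axis, log2, Bptf KD minus Control) of each of the 42 mitotic genes (rows), with all 6 tumours (filled red points, bars show the SE) and without the tumour labelled Control 2 (open diamonds). The dashed line is the median of all genes tested (0.06) and the grey band spans their 5th to 95th percentile (-0.56 to 0.48), and all points of both kinds lie left of 0.

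Other genes of the mitotic machinery were read from a list of 74, of which 49 were tested. Of the 49, 45 were negative (median -0.38), 0 passed across all genes by limma, and 14 were lower and 1 higher at an unadjusted p under 0.05. Over all genes, 538 of 9248 (5.82%) were lower and 708 higher at that p. Plk4, the kinase of centriole duplication, was at 11.15, 10.95 and 11.01 in Bptf KD tumours, against 11.40, 11.69 and 11.74 in controls (difference -0.57, limma adjusted p = 0.146). Ncapg2, a subunit of condensin II, differed by -0.67, Cdc25b, a phosphatase that activates Cdk1, by -0.39 and Aspm, a protein of spindle poles, by -0.58. Subunits of the anaphase-promoting complex and of cohesin, many of which are expressed throughout the cell cycle, stood differently: 7 of 20 were negative, the median was 0.085, and 0 had an unadjusted p under 0.05 in either direction. Anapc7 differed by 0.35 and Fzr1 (Cdh1), the activator of the complex after mitosis, by 0.20. Either form of the CHR together with CCAAT was in 27.7% of the 47 promoter windows of the other mitotic genes. It was in 0 of the 18 windows of the anaphase-promoting complex and cohesin. This share was 14.3% in 28 windows of replication and S phase genes (median difference -0.34). It was 15.4% in 13 windows of MuvB, DREAM and NF-Y genes (median difference -0.02). In 17 windows of inhibitors of cyclin-dependent kinases and G1 genes it was 5.88% (median difference -0.12). Whether the motif share bears on the differences was not tested.

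Genes of replication licensing and S phase lay on the same side as the mitotic genes. All 27 tested were negative (median -0.34), 11 at an unadjusted p under 0.05, and 0 passed across all genes by limma. The share of all genes lower at that unadjusted p was 5.82%. Orc1, a subunit of the origin recognition complex, was at 7.10, 6.93 and 6.87 in Bptf KD tumours, against 7.37, 7.55 and 7.67 in controls (difference -0.56). Of 11 genes of the MuvB, DREAM and NF-Y factors that act on CHR and CCAAT elements, 6 were negative (median -0.02). Mybl2 (B-Myb) differed by -0.61 (limma adjusted p = 0.229) and Lin37, a MuvB subunit, by 0.37 (limma adjusted p = 0.369). Of 18 inhibitors of cyclin-dependent kinases and G1 genes, 10 were negative (median -0.12). Gadd45a, a stress-induced inhibitor of Cdk1, was at 12.61, 12.88 and 13.13 in Bptf KD tumours, against 12, 11.57 and 11.29 in controls (difference 1.25, limma adjusted p = 0.0637). The inhibitor Cdkn2c differed by 0.40, Cdkn1c by -1.03 and E2f1 by -0.35, none past the adjusted threshold.

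Markers of other cells in the tumours moved with the comparison. The fibroblast and matrix list, with all 18 genes negative and 5 past the adjusted threshold, averaged 10.3 to 10.5 in Bptf KD tumours, against 11.3 to 11.5 in controls. Dpt, Col1a1 and Dcn, the largest of them, differed by -2.38, -1.81 and -1.70. The adipocyte list, with 11 of 11 negative and 6 past the threshold, averaged 6.97 to 7.81 in Bptf KD tumours, against 9.60 to 10.3 in controls. Of all genes, 0.66% were called lower at this threshold. The tumour epithelium list, with 11 of 12 positive and 0 past the threshold, averaged 10.8 to 10.9 in Bptf KD tumours, against 9.91 to 10.6 in controls. At an unadjusted p under 0.05, 4 of its genes were higher, against 708 of all 9248 genes. Endothelial genes (median 0.055, 10 tested) and macrophage genes (median 0.26, 11 tested) had list means whose groups overlapped. Of the 10 endothelial genes, 4 were negative and 6 positive, and only Tek, a receptor, passed the threshold (difference -1.30, limma adjusted p = 0.00986). Tek lay below the dim level of 6.09 in every Bptf KD tumour and above it in every control. The part of these cells in the lower level of mitotic genes was not tested. Of 11 T, B and natural killer cell markers 3 (Cd3e, Cd4 and Cd8a) passed the dim level of 6.09, and these averaged 6.56 to 6.66 in Bptf KD tumours, against 6.69 to 6.88 in controls.

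**Figure D5:**
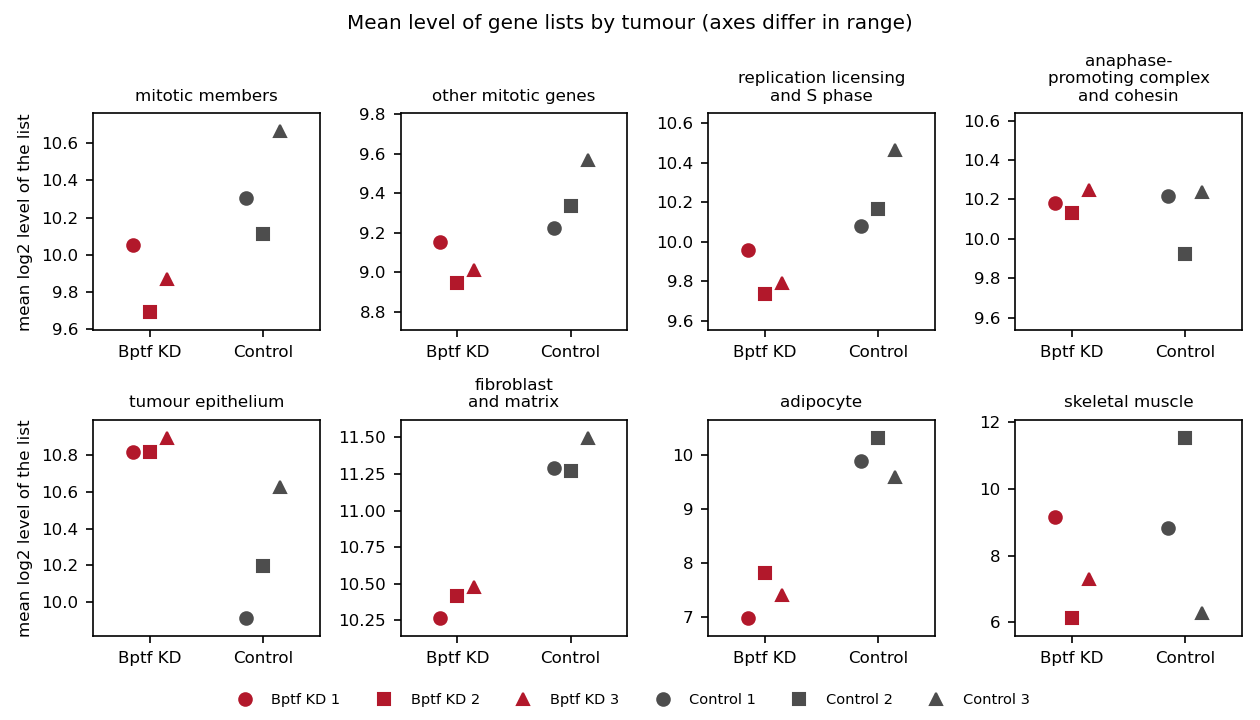
Mean log2 level (vertical axis, own range in each panel) of the 42 mitotic genes and of 7 other lists in Bptf KD (red) and Control (grey) tumours, 1 point per tumour with its number as the symbol. The mitotic, S phase, fibroblast and adipocyte means are lower in all Bptf KD tumours than in all controls, and the tumour labelled Control 2 is highest in the skeletal muscle list, at 11.5.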

How the data were processed

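Total RNA (500 ng per tumour) was labelled and hybridised to Affymetrix arrays, 1 per tumour, per the labels' protocols. The authors deposited log2 values made with RMA (no version stated), per the submitters' processing notes. They lie between 2.98 and 15.17, and base 2, the scale RMA writes, was assumed because no source used here names it. Of 22690 probe sets, 64 were controls of the manufacturer and 20380 had exactly 1 gene in the platform annotation. Symbols were brought up to date with RefSeq (GRCm38.p6) by Entrez identifier.

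A gene was represented by its brightest probe set (mean of 6 arrays), and genes whose probe set lay in the lowest 30% of all (a mean of 6.09 or below) were left out. RMA values carry no detection call. The groups were compared with limma (version 3.58.1, R version 4.3.3) on all 6 tumours, using lmFit and eBayes without a covariate. Every adjusted p is limma's, by Benjamini-Hochberg over 9248 genes, with a threshold of 0.05, and the procedure was tested on simulated data. Bptf was read with an exact two-sided permutation test. Tumours are biological triplicates per the labels. The number of arrays limits the precision.

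The 45 genes, their classes and the other lists were chosen with earlier results of these data known. Per-tumour values are given for the 3 genes of each class with the smallest p, for genes called without 1 tumour, and for Mki67, Top2a, Cdk1, Aurka, Plk1, Cdc20 and Birc5. Of the other lists, up to 4 genes with the smallest p (up to 3 with the largest difference for cell type markers) could be named. Markers of red blood cells (3 of 9 tested, median -0.24) and neutrophils (6 of 12 tested, median 0.125) were read too. Alternatives are given in the closing section.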

Additional observations from a re-analysis of the deposited data

How the results depend on the processing

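Alternatives concerned the filter (none, or the lowest 50% left out), the choice of probe set (mean, or largest SD), scaling (medians centred, or quantiles normalised again), limma's settings (trend with robust, weights per array), a covariate (skeletal muscle markers), a replicate block, and each tumour left out. Over them, 623 differences of single mitotic genes kept the direction and the side of the threshold, 37 passed it and 6 changed sign. The sign changed for Aurkb without Bptf KD 2 (0.083) and without control 3 (0.28), for Racgap1 without Bptf KD 2 (0.028), control 1 (0.037) or control 3 (0.21), and for Ncapd2 without control 3 (0.03). At the other end, without the tumour labelled Control 2, these 3 differed by -0.57, -0.49 and -0.92. The median difference over the mitotic genes was negative throughout, from -0.575 to -0.32 with 1 tumour left out. All genes called numbered 75, against 42 with the stricter filter, 49 with the muscle covariate, 1676 with array weights, and 0 (without Bptf KD 3) to 412 (without the tumour labelled Control 2) with 1 tumour left out. Mitotic genes called lower numbered 0, against 31 with array weights and 0 to 6 with 1 tumour left out, the 6 without the tumour labelled Control 2. Those lower at an unadjusted p under 0.05 numbered 21, against 41 with array weights and 8 (without control 3) to 28 (without the tumour labelled Control 2), with 10 without Bptf KD 2 and 10 without Bptf KD 3. The share of all genes lower at that p moved too: it was 5.82% with all tumours, 13.7% with array weights, 4.58% without control 3 and 11% without the tumour labelled Control 2. Groups without overlap numbered 18 with all tumours and 18 to 32 with 1 left out, where fewer tumours make an overlap less likely. Over all genes the share with every Bptf KD tumour below every control was 8.17% with all tumours. With 1 left out it was 9.78% (without Bptf KD 3) to 18.9% (without the tumour labelled Control 2). The causes of these shifts were not tested.

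The labels give same-numbered tumours of the groups only a shared number, and the numbers were not taken as pairs. Deviations from the group means correlated at 0.0054, 0.28 and 0.37 between same-numbered tumours 1, 2 and 3. Between tumours of different number they correlated at -0.44 to 0.35. Whether the numbers mark pairs was not tested. With the replicate number as a block, 107 genes were called by limma, with 0.995% of all genes called lower, and 0 mitotic genes were among them. At an unadjusted p under 0.05, 25 of the 42 mitotic genes were lower, against 6.63% of all genes. The median difference of the mitotic genes was -0.47.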

Other observations

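The promoter elements of the mitotic genes were also looked up in the rest of the genes tested, a comparison chosen after the values were seen and given without a test. The CHR was counted here in either form, TTTGAA or TTCGAA. Only the 42 mitotic genes were left out, so the other mitotic genes and the S phase genes stayed in. Both elements were in 27.7% and 14.3% of the windows of those lists. With the 42 left out, 460 genes had a promoter window with both a CHR and a CCAAT box. The median difference of these 460 genes (log2, Bptf KD minus Control) was 0.03, and 45.7% of them were negative. The 3657 genes with neither element had a median of 0.08, with 36.3% negative. At an unadjusted p under 0.05, 6.52% of the genes with both elements were lower and 6.09% higher, against 4.29% lower and 7.88% higher among those with neither. The 711 genes with a CHR and no CCAAT in the window had a median of 0.07, with 7.03% lower and 8.44% higher, and the 2599 genes with CCAAT and no CHR had a median of 0.06, with 5.19% lower and 7.43% higher. The share lower at that p was highest with a CHR and no CCAAT. The share negative was highest with both elements, at 45.7%, and the median difference was lowest there. It was 39.5% negative with a CHR and no CCAAT, and 39.2% with CCAAT and no CHR.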
